A study of Sus scrofa with 12 samples.

Results

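Genes that supply, receive or answer glucocorticoid and thyroid hormone signals were read out in the jejunum of piglets before and after weaning. The list had 10 genes, and its members were the rows of the deposited expression table that carry one of the listed gene names. Of these 10 genes, 6 were found among the 17049 gene names of the table, namely NR3C1, HSD11B2, SGK1, KLF9, THRA and DIO1. DIO1 is listed under its Ensembl identifier, ENSSSCG00000028896, on 2 rows that were summed, and the other 5 members have 1 row each. FKBP5 is present only under an identifier, ENSSSCG00000001549, so its values are given beside the members without being counted among them. HSD11B1, TSC22D3 and THRB were not analysed here.

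Cortisol acts through the glucocorticoid receptor (NR3C1), which moves to the nucleus and switches on target genes such as FKBP5, SGK1 and KLF9, while HSD11B2 converts cortisol to inactive cortisone before it reaches the receptor. Thyroid hormone acts through the nuclear receptors THRA and THRB, and the deiodinase DIO1, a selenoenzyme, removes iodine from thyroxine and its products, which both makes and clears the active hormone. Both hormones are known to drive maturation of the small intestine around the change from milk to solid feed, and cortisol is a hormone of weaning stress in pigs.

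Poly(A) RNA of the jejunum was sequenced from 12 piglets in 4 groups of 3. W_Con and W_Res piglets were taken at 21 days of age, on the day of weaning, and PW_Con and PW_Res piglets at 28 days of age, 7 days after weaning. Sows of the Con groups ate a corn and soybean meal diet, and sows of the Res groups ate the same diet with 300 mg/kg resveratrol, a plant polyphenol, during gestation and lactation; the piglets' own feed was not part of the treatment as labelled. According to the sample records all litters were sired with pooled Landrace semen, pups were fostered inside their own diet group, and weaned piglets stayed in the nursing pens without the sow. The article gives another account of the control piglets, with male Yorkshire × Duroc animals brought to a nursing room once weaned. The article also took a male from each litter at either age, so that piglets of both ages may be littermates, and which libraries share a litter is not given in the sources used here. The tests treat both ages as independent groups, and age and weaning cannot be told apart, since all weaned piglets were older.

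Values are FPKM, sequenced fragments relative to exon length and to all mapped reads of a library, which correct for gene length and library depth. The table gives no counts, so the depth behind a single gene is unknown. Between 11716 and 13166 gene names per library had more than 0.5 FPKM. Enterocyte markers were present in every library, with 8 of 9 in the table and a summed level of 3272 to 10283 FPKM, and the liver and pancreas markers measured summed to at most 4.63 FPKM and the macrophage markers measured to at most 4.37 FPKM. The 7 proximal small intestine markers in the table (of 8) summed to 4269 to 16485 FPKM in W_Con, 1577 to 6380 FPKM in PW_Con, 2759 to 9337 FPKM in W_Res and 4534 to 9767 FPKM in PW_Res. Of all 51 cell type markers in the table, 4 were higher in W_Res than in W_Con without overlap and 7 were lower. Among all genes tested, 21% had groups that do not overlap in this comparison, in either direction. Among 7 lymphocyte markers, the B cell genes CD79A and CD79B were higher, and CD3D, CD3E, CD2 and PTPRC were lower. The smooth muscle markers ACTA2 and DES were the other higher ones. The enterocyte markers VIL1 and KRT20 and the stromal marker PDGFRA were the other lower ones. A distal marker and smooth muscle markers differed between libraries of a single group. The ileal bile acid binding protein FABP6, a marker of distal small intestine, had 8055, 1231 and 9.10 FPKM in W_Con, 128, 12.2 and 6146 FPKM in W_Res, 9621, 8791 and 6518 FPKM in PW_Con, and 24110.4, 1.70 and 4.81 FPKM in PW_Res (replicates 1 to 3). The 6 smooth muscle markers in the table (of 8) summed to 1787 FPKM in W_Res 1 and 3905 FPKM in W_Res 2, against 150.0 to 656 FPKM in the other 10 libraries. In whole tissue, fewer cells of a type and less RNA per cell cannot be told apart.

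limma was run on log2(FPKM + 1) for each comparison, and a gene is called past the standard, the study's own, where the unadjusted P is under 0.05 and the absolute log2 fold change is over 1. DIO1 was the only one of the 6 members to pass in any comparison by limma. It fell after weaning in litters of both diets, in resveratrol litters by a margin that single libraries and the scaling decide, and at 28 days it was higher in litters of resveratrol-fed sows than in control litters. The glucocorticoid receptor, the thyroid hormone receptor, SGK1 and KLF9 differed between groups by less than the fold limit, and their groups overlapped in every comparison of 2 groups. HSD11B2 had non-overlapping groups in control litters only, below the fold limit by limma. The article, with the same limits, lists HSD11B2 among the genes raised by weaning in the control libraries. In control weaning, 1 of 6 members passed, where 3.31% of all genes tested did, 2 of 6 had an unadjusted P under 0.05 (17.7% of all genes) and 2 of 6 had groups that do not overlap (25.3% of all genes). In resveratrol weaning, 1 of 6 members passed (4.75% of all genes), 1 had an unadjusted P under 0.05 (13.3%) and 1 had groups that do not overlap (21.8%). No member reached an adjusted p under 0.05 in any of the 6 comparisons by limma. DIO1 made up these counts, with HSD11B2 as the other member of 2 in control litters. The median log2 fold change of the 6 members was -0.21 in control weaning and -0.12 in resveratrol weaning, beside -0.02 and -0.16 over all genes tested.

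**Figure D1:**
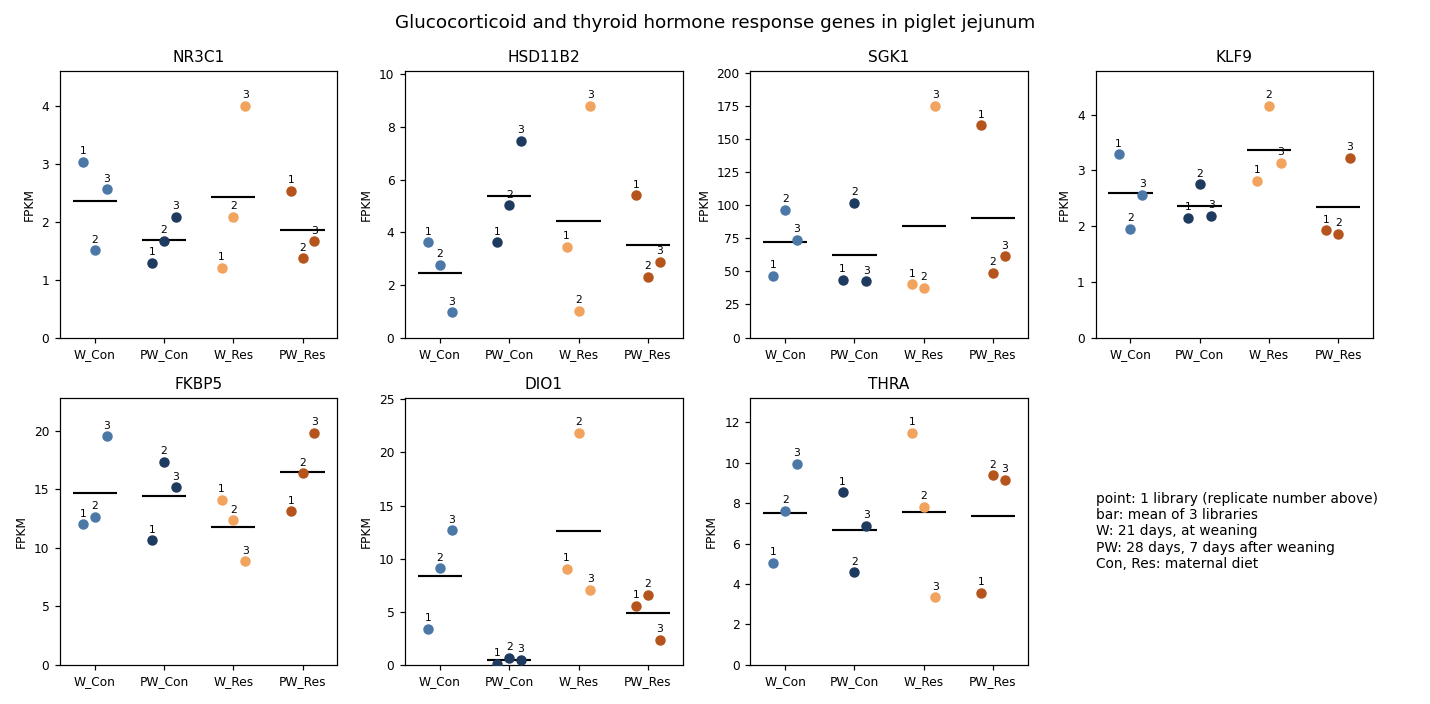
FPKM (vertical axes) of the 6 members and FKBP5 in each of the 12 libraries by group, with replicate numbers above the points and bars at the means of 3. The 3 PW_Con values of DIO1, from 0.0936 to 0.657 FPKM, lie under all of its other values, and the groups of the other genes mostly overlap.

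DIO1 had 3.37, 9.08 and 12.7 FPKM in the 3 W_Con libraries and 0.0936, 0.657 and 0.499 FPKM in the 3 PW_Con libraries. Every control piglet at 28 days was below every control piglet at 21 days. The group means were 8.38 ± 4.69 FPKM (SD, n = 3) at 21 days and 0.417 ± 0.291 FPKM (SD, n = 3) at 28 days. The log2 fold change was -2.60 (SE 0.42, unadjusted P = 0.000405, adjusted p = 0.117 by limma). Since 1 is added to each value, this understates the change of a gene with so few FPKM, and a pseudocount of 0.1 gave -4.06. Of 8 enterocyte markers, 1 was lower in PW_Con than in W_Con without overlap (FABP2, at 60.3 to 130.5 against 260.4 to 759 FPKM) and 0 were higher, and of 7 proximal markers 2 were lower (FABP1, at 891 to 2762 against 3311 to 12407 FPKM, and SLC40A1) and 0 were higher. Of 6 distal markers 2 were higher without overlap (SLC51A and PYY) and 0 were lower, and 6 of all 51 cell type markers in the table were higher and 4 lower. Among all genes tested, 25.3% had groups that do not overlap here, in either direction. The part of these cells in the DIO1 result was not tested. Of the 2 rows, the larger one held 82.5% to 100% of the summed DIO1 value of a library.

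In litters of resveratrol-fed sows, DIO1 had 9.03, 21.8 and 7.04 FPKM at 21 days and 5.58, 6.62 and 2.36 FPKM at 28 days. The groups did not overlap here either, although the gap between 7.04 and 6.62 FPKM is small. Of 51 cell type markers, 6 were lower at 28 days without overlap in these litters (COL1A2, COL3A1, DCN and LUM of 5 fibroblast markers, and ACTA2 and TAGLN of 6 smooth muscle markers) and 3 were higher (VIL1, KRT20 and ONECUT2). Among all genes tested, 21.8% had groups that do not overlap here, in either direction. The fibroblast markers summed to 467 to 1424 FPKM in W_Res, highest in W_Res 2, which also had the highest DIO1, and to 198 to 419 FPKM in PW_Res, and their part in the DIO1 result was not tested. The log2 fold change was -1.15 (SE 0.46, unadjusted P = 0.0393, adjusted p = 0.359 by limma). This call rests on single libraries, because limma's unadjusted P was above 0.05 without W_Res 1 (log2 fold change -1.30), without W_Res 2 (-0.70), without PW_Res 1 (-1.28) or without PW_Res 3 (-0.79). With both libraries of high smooth muscle markers left out, W_Res 3 is the only resveratrol library of 21 days and is assumed to vary like the other groups, and the difference from it was -0.54. DIO1 also missed the standard here after median-of-ratios rescaling (-0.97) and quantile normalization (-1.03, unadjusted P = 0.0582 by limma), and the Ballgown model turned the sign (0.47, unadjusted P = 0.658). The standard was missed as well without the filter on low FPKM and with a smooth muscle marker covariate.

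Averaged over both diets, DIO1 fell by 1.87 on the log2 scale (SE 0.34, unadjusted P = 0.000166, adjusted p = 0.0603 by limma). An exact permutation test of ages within each diet gave p = 0.005 (two-sided), the smallest that its 400 arrangements allow. In this comparison 1 of 6 members passed the standard (1.42% of all genes), 1 of 6 had an unadjusted P under 0.05 (19% of all genes) and 0 of 6 had an adjusted p under 0.05 (0.0776% of all genes). The fall in DIO1 was smaller in resveratrol litters by 1.45 on the log2 scale (SE 0.68), and limma's test of that difference missed the threshold (unadjusted P = 0.0571, adjusted p = 0.380). It passed the standard with a pseudocount of 0.1 (2.75), after rescaling (1.60), with a smooth muscle marker covariate (2.01), without W_Con 1 (1.92), without W_Res 2 (1.90) and without PW_Res 3 (1.81). Without any other single library it was 1.10 to 1.57 and missed the threshold. For this difference of weaning effects 0 of 6 members passed, also at an unadjusted P under 0.05 and with the linear model of Ballgown, where 7.76% of all genes passed by limma.

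**Figure D2:**
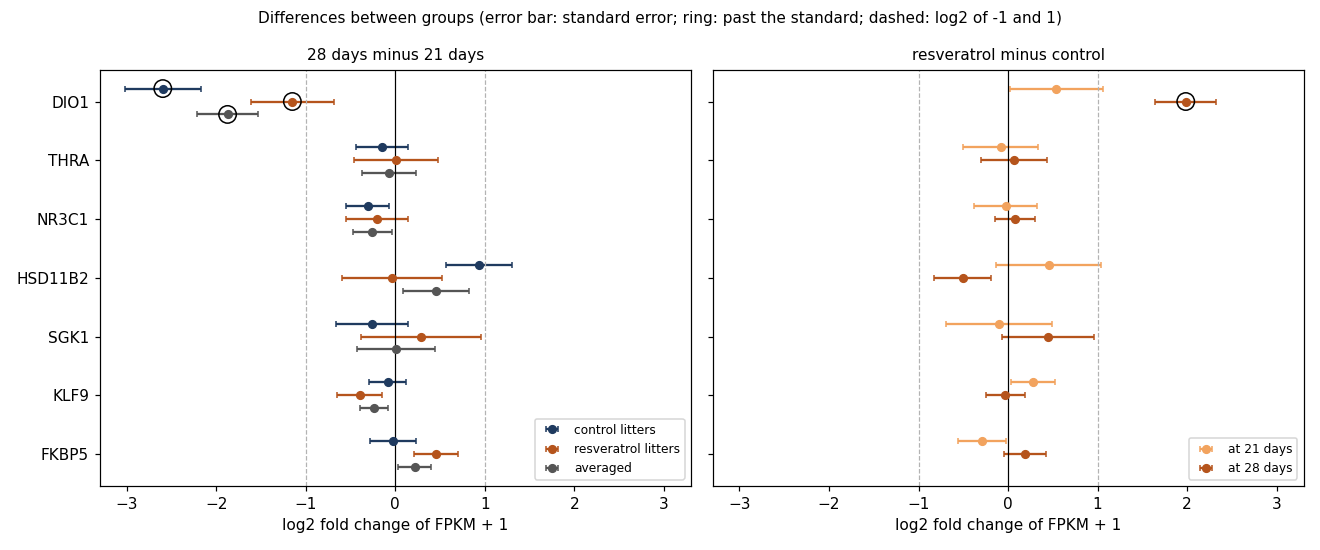
Log2 fold changes (horizontal axes) from limma on log2(FPKM + 1) for age within each diet and averaged (left) and for diet at each age (right), with standard errors as bars and rings on values past the standard. All 4 rings are on DIO1, at -2.60, -1.15, -1.87 and 1.98.

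Maternal resveratrol was compared with the control diet at each age, in comparisons that share their libraries with the weaning comparisons above. At 21 days DIO1 did not separate by diet, with a log2 fold change of 0.54 (SE 0.52, unadjusted P = 0.333 by limma), and W_Con and W_Res overlapped. At 21 days 0 of 6 members passed the standard, also at an unadjusted P under 0.05 and with the Ballgown model (4.47% of all genes passed by limma), and 0 of 6 had groups that do not overlap (21% of all genes). At 28 days DIO1 was higher in resveratrol litters by 1.98 on the log2 scale (SE 0.34, unadjusted P = 0.000562, adjusted p = 0.206 by limma), and the lowest PW_Res value, 2.36 FPKM, was above the highest PW_Con value, 0.657 FPKM. At 28 days 1 of 6 members passed (1.81% of all genes), and 1 of 6 had groups that do not overlap (17.3% of all genes). With the Ballgown model this difference was 2.20 and its unadjusted P was 0.0667. Of 51 cell type markers, 2 were higher in PW_Res than in PW_Con without overlap, the proximal marker SLC40A1 and the crypt marker LGR5. Lower without overlap were 5, namely ANPEP, DCN, CD79B, MS4A1 and TOP2A, beside the 17.3% of all genes without overlap in either direction. The part of these cells in the DIO1 difference was not tested.

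At 28 days all 3 PW_Con libraries had at least 6518 FPKM of the distal marker FABP6. PW_Res 2 and PW_Res 3 had at most 4.81 FPKM. PW_Res 1 had the highest FABP6 of all 12 libraries, 24110.4 FPKM, and its DIO1 level was 5.58 FPKM. With the mean log2 level of the 6 measured distal markers as a covariate in a fit of all 12 libraries, the diet difference of DIO1 at 28 days was 1.59 (unadjusted P = 0.00869 by limma), and its change with weaning was -2.28 in control litters (unadjusted P = 0.000639) and -1.17 in resveratrol litters (unadjusted P = 0.0236). This covariate was added after seeing the data. The article reports FABP6, NR1H4, SLC51A and PYY, all among these markers, as raised by weaning in the control piglets. The fit therefore cannot tell gut site from weaning, and the part of gut site in the DIO1 differences was not tested.

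**Figure D3:**
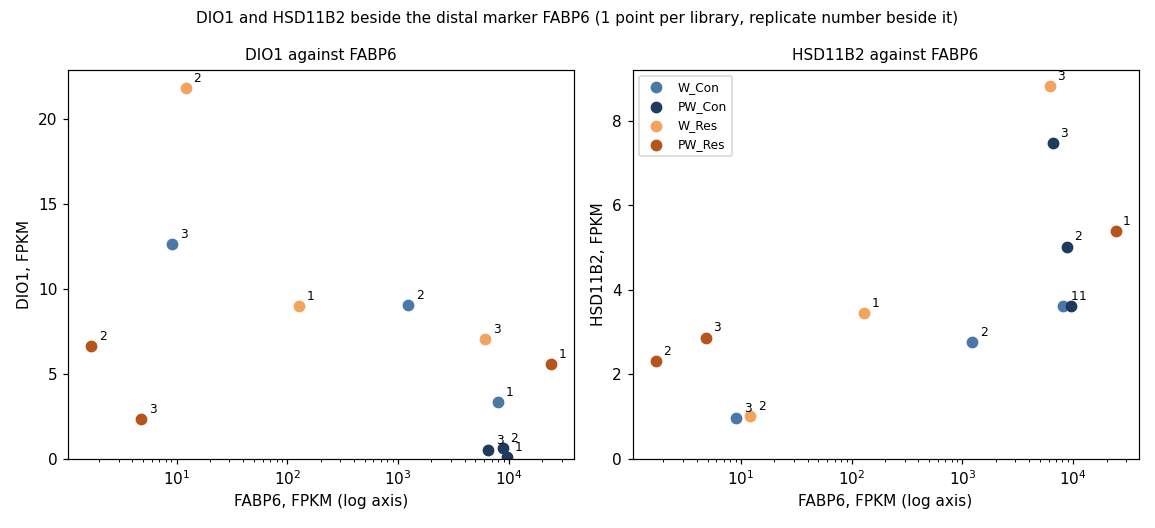
FPKM of DIO1 (left) and HSD11B2 (right) against FPKM of the distal marker FABP6 on a log axis, 1 point per library with its replicate number. PW_Res 1, at 24110.4 FPKM of FABP6, has 5.58 FPKM of DIO1, and the lowest HSD11B2 values, 0.963 and 1.01 FPKM, belong to W_Con 3 and W_Res 2, where FABP6 is 9.10 and 12.2 FPKM.

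THRA, the receptor through which thyroid hormone acts in the gut epithelium, had 5.04, 7.62 and 9.94 FPKM in W_Con and 8.55, 4.57 and 6.88 FPKM in PW_Con. It had 11.5, 7.82 and 3.34 FPKM in W_Res and 3.57, 9.37 and 9.15 FPKM in PW_Res. Each group spans both low and high libraries, and the 4 group means, from 6.67 to 7.55 FPKM, differ by less than the smallest SD within a group, 1.99 FPKM. The averaged weaning difference was -0.07 (SE 0.30, unadjusted P = 0.815 by limma), and its sign turned to 0.020 on median-of-ratios rescaling.

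NR3C1, the glucocorticoid receptor, had 3.04, 1.51 and 2.56 FPKM in W_Con, 1.30, 1.67 and 2.09 FPKM in PW_Con, 1.21, 2.08 and 4.01 FPKM in W_Res, and 2.53, 1.37 and 1.67 FPKM in PW_Res. The highest value, in W_Res 3, was 3.33 times the lowest, in W_Res 1, so the widest spread lay inside a single group. The averaged weaning difference was -0.26 (SE 0.22, unadjusted P = 0.258 by limma). The differences between diets were -0.03 (SE 0.35) at 21 days and 0.08 (SE 0.22) at 28 days.

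HSD11B2, which shields the receptors from cortisol, had 3.62, 2.75 and 0.963 FPKM in W_Con and 3.62, 5.02 and 7.48 FPKM in PW_Con. The 28-day values lay above the 21-day values by the narrowest margin, 3.619 against 3.615 FPKM, with a log2 fold change of 0.93 (SE 0.37, unadjusted P = 0.0388, adjusted p = 0.258 by limma). This is under the fold limit by limma, while the article counts HSD11B2 among the genes raised in weaned piglets. Here HSD11B2 was past the standard with a pseudocount of 0.1 (1.23), with the Ballgown model (1.03), without W_Con 1 (1.19) and without PW_Con 1 (1.14). Its unadjusted P was above 0.05 without the filter, with 12 libraries in the fit, and without W_Con 2 (1.04), W_Con 3 (0.57), PW_Con 2 (0.95) or PW_Con 3 (0.70). In resveratrol litters HSD11B2 had 3.45, 1.01 and 8.81 FPKM at 21 days and 5.40, 2.31 and 2.87 FPKM at 28 days. Its weaning difference there was -0.03 (SE 0.56), and the test of the difference between litters gave -0.96 (SE 0.74, unadjusted P = 0.217 by limma). That difference moved with single libraries, to -1.54 without W_Res 2, where it was past the standard, and to -0.39 without W_Res 3 or -0.60 without W_Con 3. The 4 libraries of lowest FABP6 had 0.963 to 2.87 FPKM of HSD11B2 and the other 8 had 2.75 to 8.81 FPKM, and with the distal markers as a covariate the weaning difference in control litters was 0.34 (unadjusted P = 0.333 by limma). Since the article reports several of these markers as raised by weaning, the covariate may itself take out part of the weaning difference. Gut site and weaning cannot be told apart in this fit.

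SGK1, a kinase that raises sodium uptake through the epithelial sodium channel, was the most abundant of the members per length, with a mean of 77.3 FPKM over 12 libraries. It had 46.4, 96.3 and 73.8 FPKM in W_Con, 43.5, 102 and 42.4 FPKM in PW_Con, 40.1, 37.5 and 175 FPKM in W_Res, and 160.4, 49.1 and 61.3 FPKM in PW_Res. A single library stood high in W_Res, in PW_Res and in PW_Con. The averaged weaning difference was 0.01 (SE 0.44, unadjusted P = 0.984 by limma), and its sign turned to -0.023 on quantile normalization. The weaning difference in resveratrol litters was 0.28 (SE 0.67), and it was -1.15 from W_Res 3 alone, the library with the highest SGK1 of all 12.

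KLF9, a transcription factor that both hormones induce, had 3.29, 1.95 and 2.56 FPKM in W_Con, 2.14, 2.75 and 2.18 FPKM in PW_Con, 2.81, 4.16 and 3.13 FPKM in W_Res, and 1.93, 1.86 and 3.22 FPKM in PW_Res. Both ages overlapped within each diet, and both diets overlapped at each age. The weaning difference was -0.09 (SE 0.21) in control litters, -0.40 (SE 0.25) in resveratrol litters and -0.24 (SE 0.16, unadjusted P = 0.148 by limma) on average.

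FKBP5, a co-chaperone that dampens the receptor's affinity for cortisol and is itself induced by it, had 12.0, 12.6 and 19.5 FPKM in W_Con, 10.6, 17.3 and 15.1 FPKM in PW_Con, 14.1, 12.3 and 8.84 FPKM in W_Res, and 13.1, 16.3 and 19.8 FPKM in PW_Res. Among the genes described here it had the smallest spread relative to its mean, with an SD of 23.8% of the mean over 12 libraries, while for DIO1 the SD was 94.7% of the mean. The weaning difference was -0.03 (SE 0.25) in control litters, 0.45 (SE 0.25) in resveratrol litters and 0.21 (SE 0.18, unadjusted P = 0.263 by limma) on average. The sign in control litters turned on leaving out W_Con 3 (0.18) or PW_Con 1 (0.16).

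By their means over all 12 libraries the genes ranked from SGK1 through FKBP5 (14.3 FPKM), THRA (7.28 FPKM), DIO1 (6.57 FPKM), HSD11B2 (3.94 FPKM) and KLF9 (2.67 FPKM) to NR3C1 (2.09 FPKM). DIO1 has no fixed place in this order, since its group means run from 0.417 FPKM in PW_Con, the lowest of the 7 genes there, to 12.6 FPKM in W_Res, above FKBP5 at 11.8 FPKM. From THRA down to NR3C1, the ranges of mean ± SD of neighbours in this order overlap. The 3 glucocorticoid targets measured were compared from piglet to piglet over the 12 libraries in 3 pairs. Pearson's r was -0.20 for FKBP5 and SGK1 (permutation p = 0.538), -0.10 for FKBP5 and KLF9 (permutation p = 0.767) and -0.21 for SGK1 and KLF9 (permutation p = 0.510), with an adjusted p of 0.767 for each. Spearman's rho was 0.05 (permutation p = 0.888), -0.15 (permutation p = 0.648) and -0.29 (permutation p = 0.353), in the same order. Without the 2 libraries farthest from the median of the first gene, r was 0.23, -0.12 and -0.27. Within groups, r was -0.31, 0.31 and -0.23, so the first pair and the second changed sign between these readings.

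The wider glucocorticoid pathway was read from a list of 56 further genes, of which 43 are in the table. In control weaning 3 of 36 tested passed the standard, in resveratrol weaning 1 of 37, and on average over both diets 2 of 37, against 3.31%, 4.75% and 1.42% of all genes. The list's median log2 fold change was -0.02, 0.10 and 0.05 in these comparisons, beside medians over all genes of -0.02, -0.16 and -0.10. Among genes induced by glucocorticoids in many tissues, 2 of 15 tested rose in control weaning and 1 of 16 in resveratrol weaning, and none of them fell past the standard; 18 of the 26 listed are in the table. At an unadjusted P under 0.05 by limma, 5 were higher and 2 lower in control weaning (17.7% of all genes in either direction), and 1 was higher and 2 lower in resveratrol weaning (13.3%). The lower ones, named after their values were seen, were GLUL, glutamine synthetase (-0.76 in control litters), SLC19A3, a thiamine transporter (-0.64 in control and -0.62 in resveratrol litters), and ANXA1, annexin A1 (-0.87 in resveratrol litters). The article also lists GLUL as lowered by weaning in the control piglets, past its fold limit, which limma did not reach here. Of the 5 higher in control weaning, MT2A, PER1 and DUSP1 are described below. The others, also named after their values were seen, were NFKBIA (0.83, unadjusted P = 0.000923 by limma) and TXNIP (0.59, unadjusted P = 0.0262 by limma). Both had groups that do not overlap in control litters, and their differences in resveratrol litters were 0.17 and 0.098. Of 4 sodium uptake genes and 4 genes of hormone supply and clearance tested, none passed in a weaning comparison by limma. At an unadjusted P under 0.05 there was 1, the sodium channel subunit SCNN1A, named after its values were seen, with an averaged weaning difference of 0.39 (SE 0.17, unadjusted P = 0.0453 by limma), where 19% of all genes had such a P. Between diets, 2 genes of the whole list were higher and 2 lower past the standard at 21 days, of 37 tested (4.47% of all genes), and at 28 days 0 of 36 passed by limma (1.81%) with 1 at an unadjusted P under 0.05, ANXA1. Those at 21 days were MT2A, PER1, NCOA2 and ATP1B1, a subunit of the sodium pump named after its values were seen. ATP1B1 had 169.8, 159.3 and 136 FPKM in W_Con and 98.5, 31.96 and 46.9 FPKM in W_Res, without overlap, and a log2 fold change of -1.53 (SE 0.39, unadjusted P = 0.00486, adjusted p = 0.344 by limma). The Ballgown model gave -1.38 with an unadjusted P of 0.140. The enterocyte markers VIL1 and KRT20 were also lower in W_Res than in W_Con without overlap. Their part in the ATP1B1 and NCOA2 differences was not tested.

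MT2A, a metallothionein that binds zinc and copper and is induced by glucocorticoids and by metals, had 10.3, 8.78 and 4.73 FPKM in W_Con and 185, 285 and 20.5 FPKM in PW_Con. It had 9.13, 24.1 and 58.6 FPKM in W_Res and 1149, 179.6 and 239 FPKM in PW_Res. It rose with weaning in both diets without overlap, with log2 fold changes of 3.61 in control litters (SE 0.90, unadjusted P = 0.00467, adjusted p = 0.141 by limma) and 3.90 in resveratrol litters (SE 0.83, unadjusted P = 0.00182, adjusted p = 0.311 by limma). Metallothionein genes are close copies of each other, so reads may have been split between them. At 21 days MT2A was higher in resveratrol litters by 1.53 (SE 0.60, unadjusted P = 0.0368, adjusted p = 0.363 by limma) with overlapping groups, and this call was lost without W_Con 2, W_Con 3, W_Res 2 or W_Res 3 (0.89 to 1.62) and after rescaling (1.44).

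PER1, a clock gene with a glucocorticoid response element, had 8.53, 5.02 and 7.31 FPKM in W_Con and 11.0, 36.4 and 21.5 FPKM in PW_Con. It rose with weaning in control litters by 1.47 on the log2 scale (SE 0.41, unadjusted P = 0.00818, adjusted p = 0.161 by limma). In resveratrol litters it had 12.7, 15.5 and 18.0 FPKM at 21 days and 31.3, 16.4 and 27.8 FPKM at 28 days, a log2 fold change of 0.64 (SE 0.28, unadjusted P = 0.0567 by limma), and the difference between litters was -0.83 (SE 0.53, unadjusted P = 0.146 by limma). On average over both diets it rose by 1.05 (SE 0.27), which dropped under the fold limit without W_Con 2 (0.96), without W_Res 1 (0.99), without PW_Con 2 (0.85) or without PW_Res 1 (0.96). At 21 days PER1 was higher in resveratrol litters by 1.06 (SE 0.25, unadjusted P = 0.00316, adjusted p = 0.332 by limma), with every W_Res library above every W_Con library; without W_Con 2 this was 0.87 and without W_Res 3 it was 0.95, both under the fold limit.

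DUSP1, a phosphatase of MAP kinases, had 17.5, 14.2 and 16.5 FPKM in W_Con and 30.1, 28.8 and 22.3 FPKM in PW_Con. Those groups did not overlap, and the log2 fold change of 0.71 (SE 0.18, unadjusted P = 0.00510 by limma) was under the fold limit. ZBTB16, a zinc finger factor induced by glucocorticoids, ranged from 0.201 to 3.06 FPKM over the libraries. Its weaning difference was 0.69 (SE 0.37) in control litters, -0.26 (SE 0.36) in resveratrol litters and 0.22 on average (SE 0.27, unadjusted P = 0.441 by limma). H6PD was not analysed here.

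Of the receptor's 13 relatives, chaperones and coregulators, all in the table, 1 passed in control weaning (3.31% of all genes) and 0 in resveratrol weaning (4.75%) by limma. At an unadjusted P under 0.05 there were 1 higher and 2 lower in control weaning (17.7%) and 0 in resveratrol weaning (13.3%). NCOA2, a coactivator of nuclear receptors, had 6.78, 5.04 and 6.14 FPKM in W_Con and 2.83, 1.73 and 1.99 FPKM in PW_Con. It fell in control litters by 1.14 on the log2 scale (SE 0.21, unadjusted P = 0.000782, adjusted p = 0.117 by limma). In resveratrol litters it had 2.85, 1.53 and 1.74 FPKM at 21 days and 5.24, 1.89 and 2.72 FPKM at 28 days. At 21 days it was lower in W_Res than in W_Con by a log2 fold change of -1.22 (SE 0.25, unadjusted P = 0.00137, adjusted p = 0.317 by limma), without overlap. NR3C2, the mineralocorticoid receptor, which also binds cortisol, had 2.61, 2.41 and 2.57 FPKM in W_Con and 1.64, 1.73 and 1.91 FPKM in PW_Con. The groups did not overlap, but the log2 fold change of -0.36 (SE 0.17, unadjusted P = 0.0704 by limma) missed both limits.

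**Figure D4:**
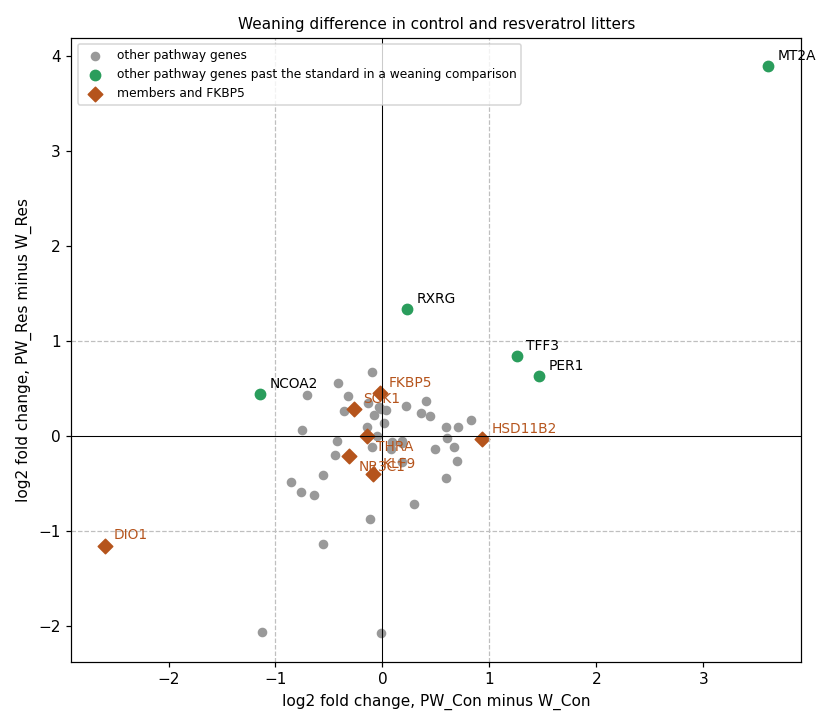
Log2 fold change with weaning in resveratrol litters (vertical axis) against that in control litters (horizontal axis) for the members with FKBP5 (diamonds) and the other pathway genes tested in both (circles), with dashed lines at -1 and 1. DIO1, at -2.60 and -1.15, and MT2A, at 3.61 and 3.90, lie farthest out among the named genes.

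The wider thyroid hormone pathway was read from 34 further genes, of which 20 are in the table and 16 were tested in each weaning comparison. In control weaning, in resveratrol weaning and on average 1 of 16 passed the standard each time, against 3.31%, 4.75% and 1.42% of all genes. At an unadjusted P under 0.05 by limma, 2 were higher in control weaning (TFF3 and HR) and 3 lower (NCOA1, MED1 and CPT1A, these and HR named after their values were seen), where 17.7% of all genes had such a P. Medians of the list were 0.05, -0.11 and -0.03 on the log2 scale. Between diets 1 of 16 passed at 21 days (4.47% of all genes), SLC7A8, an amino acid transporter named after its values were seen, and 1 of 15 at 28 days (1.81%), RXRG. SLC7A8 had 6.90, 15.2 and 1.35 FPKM in W_Con and 15.9, 19.8 and 88.3 FPKM in W_Res, a log2 fold change of 2.24 (SE 0.82, unadjusted P = 0.0277, adjusted p = 0.354 by limma). This call was lost without W_Con 3 (1.48), without W_Res 3 (1.49), with the Ballgown model (2.02) and with the smooth muscle covariate (1.28). For the genes that deiodinate or handle iodide, DIO2 and DIO3 were not analysed here. IYD, which recovers iodide from iodotyrosines, had 0.657, 1.37 and 3.51 FPKM in W_Con, 1.19, 1.69 and 0.279 FPKM in PW_Con, 0.757, 1.45 and 1.65 FPKM in W_Res, and 1.33, 2.45 and 3.55 FPKM in PW_Res. Its weaning difference was -0.41 (SE 0.43) in control litters and 0.56 (SE 0.32) in resveratrol litters, 0.07 on average (SE 0.28, unadjusted P = 0.797 by limma), and the test of the difference between litters gave 0.97 (SE 0.57, unadjusted P = 0.112 by limma). The article lists IYD among the genes lowered by weaning in the control piglets, a call that limma did not reach here.

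RXRG, a retinoid X receptor that can pair with thyroid hormone receptors on DNA, had 3.23, 4.13 and 3.51 FPKM in W_Con, 4.74, 4.93 and 3.64 FPKM in PW_Con, 3.41, 3.28 and 5.71 FPKM in W_Res, and 16.4, 10.1 and 9.59 FPKM in PW_Res. The 3 PW_Res libraries lay above all of the other 9. It rose with weaning in resveratrol litters by 1.34 on the log2 scale (SE 0.29, unadjusted P = 0.00196, adjusted p = 0.311 by limma), and at 28 days it was higher in resveratrol than in control litters by 1.23 (SE 0.24, unadjusted P = 0.00119, adjusted p = 0.317 by limma). In control litters the weaning difference was 0.23 (SE 0.19). From W_Res 3 alone, the highest W_Res library, the rise in resveratrol litters was 0.92, under the fold limit. TFF3, a peptide of goblet cells counted here among thyroid hormone responsive genes, had 313, 609.9 and 350.2 FPKM in W_Con and 995, 683 and 1364 FPKM in PW_Con. It rose with weaning in control litters by 1.26 on the log2 scale (SE 0.34, unadjusted P = 0.00749, adjusted p = 0.159 by limma). In resveratrol litters it had 758, 363 and 1141 FPKM at 21 days and 981, 1001 and 1841 FPKM at 28 days, a log2 fold change of 0.84 (SE 0.48, unadjusted P = 0.122 by limma), and the difference between litters was -0.42 (SE 0.63, unadjusted P = 0.518 by limma). On average over both diets it rose by 1.05 (SE 0.32), which was under the fold limit without W_Con 1 (0.96), without W_Con 3 (0.998), without W_Res 2 (0.83), without PW_Con 3 (0.93) or without PW_Res 3 (0.90).

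With the Ballgown model the unadjusted P was above 0.05 for the weaning rises of MT2A (log2 fold change 3.68), PER1 (1.47) and TFF3 (1.27) in control litters and of MT2A (4.89) and RXRG (1.28) in resveratrol litters, with folds near those of limma except for MT2A in resveratrol litters, while the fall of NCOA2 in control litters stayed past the standard.

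**Figure D5:**
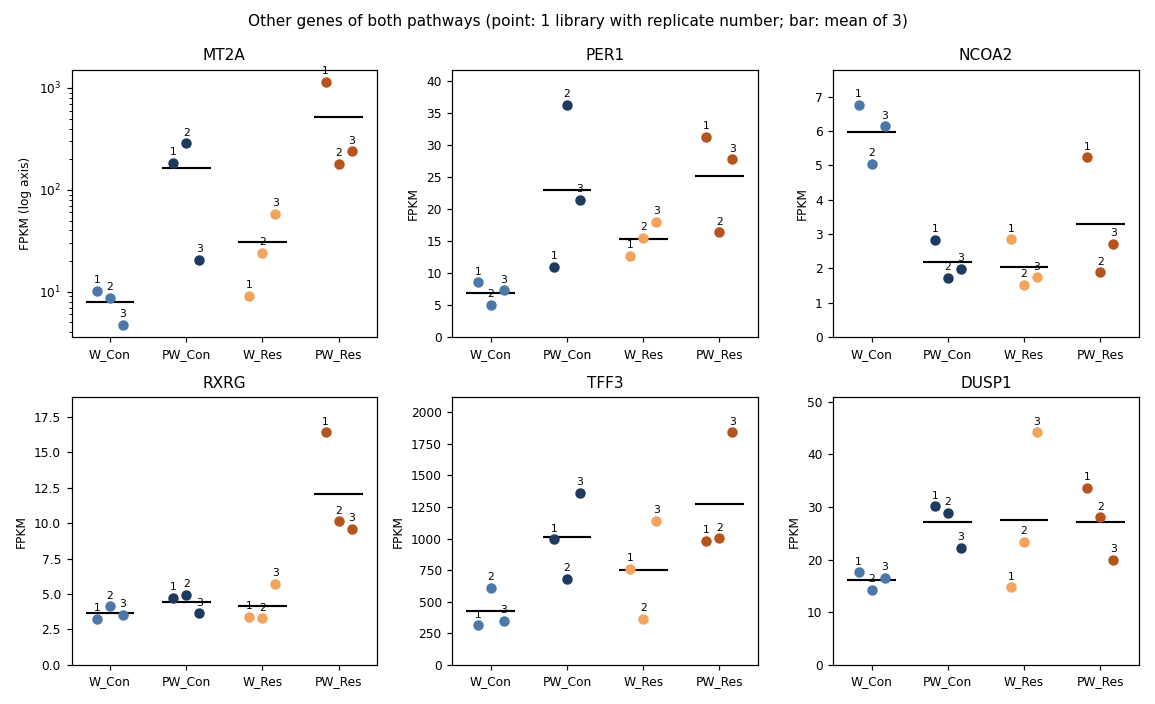
FPKM (vertical axes, log for MT2A) of 6 other pathway genes in each of the 12 libraries by group, with replicate numbers above the points and bars at the means of 3. MT2A is at 4.73 to 58.6 FPKM in the 21-day libraries and at 20.5 to 1149 FPKM in the 28-day libraries, and RXRG is at 9.59 to 16.4 FPKM in PW_Res.

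For each gene the 3 genes of most similar pattern were taken by Pearson's r over the 12 libraries, among 9283 gene symbols compared, as a description of libraries that share tissue makeup and group differences. DIO1 was closest to GPD1 (r = 0.93), a glycerol phosphate dehydrogenase, LPAR1 (0.90) and C2orf42 (0.89). THRA was closest to PPIF (0.92), NOL10 (0.89) and NIFK (0.89). NR3C1 was closest to IL7 (0.89), SLC17A5 (0.83) and MARCH7 (0.82). HSD11B2 was closest to ZNF703 (0.91), NOXA1 (0.91) and TMEM171 (0.88). SGK1 was closest to TCN2 (0.91), PRAP1 (0.89) and ENTPD8 (0.88), and KLF9 to SIRT4 (0.87), RCN2 (0.86) and C1orf186 (0.86). FKBP5 was closest to COX5B (0.88), SLC35C1 (0.87) and POLR2E (0.85).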

How the data were processed

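Jejunum RNA-seq of 12 piglets was analysed from 1 table in which the authors deposited FPKM per assembled gene, with 41264 rows. The article states alignment to the Ensembl pig genome with TopHat and quantification with StringTie and Ballgown. The submitters' processing notes also name Bowtie 0.12.2, HISAT2 2.0, StringTie 1.3.0 and the builds Sscrofa10.2 and mm8, without roles. Any further scaling between libraries is not stated. The 17650 rows without a gene name (42.8%) were left out, and rows that share a name were summed. Of 6232 gene names that are Ensembl identifiers, 2139 were given a symbol from the pig annotation. Members, gene lists and tests were chosen with earlier results of these data known.

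Two-sided tests were run on log2(FPKM + 1) with a trended eBayes fit in limma 3.58.1 (R 4.3.3), for genes that averaged 0.5 FPKM or more in the libraries fitted. Comparisons of 2 groups used 6 libraries, while the averaged weaning effect and the difference of weaning effects used 12. Adjusted p is Benjamini-Hochberg over all genes tested. Exact permutation tests of 3 against 3 libraries cannot go below p = 0.1. A limma P sets a difference between groups against the spread between piglets, drawn toward the spread of other genes. The records call the piglets biological replicates, and by the article some may be littermates. Correlations used 100000 permutations (SciPy 1.17.1), in 3 pairs because TSC22D3 was not analysed here. Named pathway genes were those past the standard in a weaning comparison (at most the 12 of largest averaged change), with IYD, NR3C2, H6PD, DIO2, DIO3, PER1, DUSP1 and ZBTB16 in any case; others named are marked. Similar genes had a mean of at least 1 FPKM. The fit was tested on simulated data.

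Each fit was repeated with the pseudocount at 0.1, without the filter or with it at 5 FPKM, after median-of-ratios rescaling or quantile normalization, without the eBayes trend, with a replicate block, with the linear model and covariate of Ballgown, on single rows, with 12 libraries for every comparison, and without each replicate in turn. Covariates for distal and for smooth muscle markers, and leaving out W_Res 1 and W_Res 2, were added after seeing the data.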

Additional observations from a re-analysis of the deposited data

Results flagged for a closer look

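NCOA2 and RXRG were singled out because the test of the difference between their weaning effects in control and resveratrol litters had an unadjusted P under 0.05 by limma. The difference was 1.58 on the log2 scale for NCOA2 (SE 0.40, unadjusted P = 0.00214, adjusted p = 0.251 by limma) and 1.11 for RXRG (SE 0.34, unadjusted P = 0.00761, adjusted p = 0.252 by limma). The W_Con libraries are the high group for NCOA2, and the PW_Res libraries are the high group for RXRG. With W_Res 3, the highest W_Res library for RXRG, as the only resveratrol library of 21 days, the RXRG difference was 0.69. It was under the fold limit without W_Res 2 (0.993), without PW_Con 3 (0.997) or without PW_Res 1 (0.88).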

How the results depend on the processing

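The fall of DIO1 in control litters and on average, and its higher level in resveratrol litters at 28 days, kept their direction under each alternative run, with leave-one-out ranges of -3.07 to -2.25, -2.11 to -1.65 and 1.75 to 2.34. DIO1 in resveratrol weaning was the exception, and in each case below the cause was not tested. Over all alternatives, 1093 single-gene values kept direction and side of the threshold, 106 reversed, 62 lost the standard and 15 gained it. Depth per gene is unknown, so differences among genes of a few FPKM are the least certain.

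Leaving out W_Res 1 and W_Res 2 keeps W_Res 3 alone as the resveratrol library of 21 days, assumed to vary like the other groups. Members past the standard in control weaning were 2 with pseudocount 0.1, 0 with a minimum of 5 FPKM (DIO1 is then left out) and 2 with Ballgown. In resveratrol weaning they were 0 without the filter, after median-of-ratios rescaling, after quantile normalization, with Ballgown, with the smooth muscle covariate and without W_Res 1 and W_Res 2. For the difference of weaning effects they were 1 with pseudocount 0.1, rescaling or the smooth muscle covariate, and 2 without W_Res 1 and W_Res 2. At 21 days there was 1 without W_Res 1 and W_Res 2, and at 28 days 0 with a minimum of 5 FPKM and with Ballgown. Genes past the standard in control weaning, resveratrol weaning, averaged weaning, diet at 21 days and diet at 28 days were 853, 1163, 591, 1008 and 488 with pseudocount 0.1, and 227, 245, 118, 248 and 122 with a minimum of 5 FPKM, which left 364 for the difference of weaning effects. Ballgown gave 230 in resveratrol weaning, 290 for the difference of weaning effects, 178 at 21 days and 342 at 28 days.

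Same-numbered libraries deviated from their group means with correlations of -0.26 to 0.30, over pairs of groups within and across diets. With 3 libraries per group this cannot decide whether the numbers pair littermates, and the reported fit does not use them. The replicate block put 1 member past the standard for the difference of weaning effects (DIO1, 1.45), against 0 in the reported fit, with 1059 genes. With this block the unadjusted P of HSD11B2 in control weaning rose to 0.0754 by limma, from 0.0388 in the reported fit.

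Values that reversed sign are log2 differences under the standard in the reported fit, except for DIO1 in resveratrol weaning. In resveratrol weaning HSD11B2 was 0.056 with pseudocount 0.1, 0.11 after rescaling, 0.23 after quantile normalization and 0.0039 with the distal covariate, NR3C1 was 0.12 after quantile normalization, SGK1 was -0.40 with Ballgown, -0.15 with the smooth muscle covariate and -1.15 without W_Res 1 and W_Res 2, THRA was -0.094, -0.025 and -0.11 with Ballgown, the distal and the smooth muscle covariate, and DIO1 was 0.47 with Ballgown. In control weaning the distal covariate gave 0.30 for THRA and 0.21 for FKBP5. Averaged, THRA was 0.020 after rescaling, 0.0053 after quantile normalization, 0.14 with the distal covariate and 0.35 without W_Res 1 and W_Res 2. SGK1 was -0.023 (quantile), -0.32 (Ballgown), -0.23 (distal), -0.18 (smooth muscle) and -0.71 (W_Res 1 and W_Res 2 left out), IYD was -0.49 (Ballgown), -0.22 (smooth muscle) and -0.043 (left out), and HSD11B2 was -0.12 (left out). For the difference of weaning effects SGK1 was -0.025 (Ballgown) and -0.88 (left out), THRA -0.29 (Ballgown) and -0.32 (distal), and NR3C1 -0.20 (smooth muscle) and -0.52 (left out). At 21 days NR3C1 was 0.099 (Ballgown), 0.0054 (distal), 0.25 (smooth muscle) and 0.60 (left out), SGK1 0.64 (Ballgown), 0.33 (smooth muscle) and 1.33 (left out), THRA 0.034 (smooth muscle) and DIO1 -0.071 (left out). At 28 days KLF9 was 0.032 (rescaling) and 0.091 (quantile), HSD11B2 0.25 (Ballgown) and 0.22 (distal), THRA -0.95 (Ballgown) and -0.48 (distal), and FKBP5 -0.21 (Ballgown) and -0.10 (distal). The correlation of FKBP5 with SGK1 was 0.0051 after rescaling, and that of FKBP5 with KLF9 was 0.31 within groups.

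Leaving out each replicate gave 1 to 2 members in control weaning, 0 to 1 members and 388 to 1049 genes in resveratrol weaning, 0 to 2 members and 633 to 1367 genes for the difference of weaning effects, 394 to 944 genes at 21 days and 222 to 426 genes at 28 days. Signs turned in control weaning for KLF9 (-0.22 to 0.047), THRA (-0.38 to 0.066) and FKBP5 (-0.16 to 0.18), and in resveratrol weaning for SGK1 (-0.23 to 1.00), NR3C1 (-0.48 to 0.11), HSD11B2 (-0.61 to 0.54) and THRA (-0.42 to 0.39). They turned on average for SGK1 (-0.25 to 0.37), IYD (-0.089 to 0.27) and THRA (-0.28 to 0.12), and for the difference of weaning effects for NR3C1 (-0.17 to 0.42) and THRA (-0.27 to 0.54). At 21 days they turned for NR3C1 (-0.34 to 0.25), SGK1 (-0.82 to 0.28), THRA (-0.42 to 0.34) and HSD11B2 (-0.12 to 1.03), and at 28 days for NR3C1 (-0.084 to 0.20), KLF9 (-0.21 to 0.070), THRA (-0.15 to 0.46) and SGK1 (-0.063 to 0.86).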
